A study of Mus musculus with 6 samples.

Results

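A set of 10 genes that mark the primitive endoderm in mouse development, *Gata4*, *Gata6*, *Sox7*, *Sox17*, *Foxa2*, *Hnf4a*, *Dab2*, *Pdgfra*, *Cubn* and *Amn*, was followed in mouse embryonic stem cells (mESC) labelled as control or as deleted for the 3 *Tet* genes. They were chosen by name, with earlier results of these data known, as 10 of the 22380 genes listed for each library, and all 10 were present. RNA was measured in 6 mESC lines, 3 *Ctrl* and 3 *Tet iTKO*, each line derived from a different embryo. Lines of both groups carried 1 copy of *CreERT2*, expressed from the human ubiquitin C promoter, and 1 copy of the *Gt(ROSA)26Sor<tm1Ytchn>/J* reporter, which makes H2B-EGFP once Cre has removed a stop cassette. *Tet iTKO* lines were in addition homozygous for floxed *Tet1*, *Tet2* and *Tet3* alleles (*fl/fl*), which *Ctrl* lines lacked. All lines grew on mouse embryonic fibroblast feeders in 2i medium, which contains the GSK3 inhibitor CHIR99021 and the MEK inhibitor PD0325901. They received 1 µM 4-hydroxytamoxifen for 2.5 days, grew for 4 further days without it, and were sorted at day 6.5 as live CD326+ GFP+ Thy1.2- cells. The values are normalized counts of a bulk population, so that more cells expressing a gene and more RNA per cell cannot be told apart.

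The primitive endoderm is the extraembryonic lineage that separates from the pluripotent epiblast in the inner cell mass of the blastocyst, and it goes on to form the visceral and parietal endoderm of the yolk sacs. FGF4 from epiblast precursors, acting through FGF receptors, MEK and ERK, favours *Gata6*, while *Nanog* marks the cells that stay pluripotent. Downstream of *Gata6*, cells switch on *Pdgfra*, *Sox17*, *Gata4* and *Sox7* in turn, and later the visceral endoderm takes up nutrients with a receptor that joins cubilin, amnionless and megalin.

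The normalized counts of a library summed to between 3964824 and 4219665, and the reads behind them were estimated at 3.66 M to 5.10 M. Of 10 mESC markers 9 had a mean of at least 10, with *Pou5f1*, a core pluripotency factor, at 4318 to 5804 normalized counts, and *Fut4* did not pass 2 in any line. The floxed exons cannot be set apart in whole-gene values. Over the whole gene *Tet1* had 696, 682 and 716 normalized counts across the *Ctrl* lines, against 787, 895 and 753 in *Tet iTKO*, *Tet2* 249, 170 and 230 against 233, 268 and 211, and *Tet3* 28, 13 and 13 against 10, 3 and 3. The log2 fold changes were 0.21 for *Tet1*, 0.14 for *Tet2* and -1.67 for *Tet3* (limma adjusted p = 0.0257, 0.433 and 0.0353). The call of *Tet1* was lost without *Ctrl* line 2 or *Tet iTKO* line 2 (0.0838 and 0.222), and that of *Tet3* without *Ctrl* line 1 or 2 or *Tet iTKO* line 2 or 3 (0.184, 0.0528, 0.106 and 0.0983). Of all 10524 genes with a mean of at least 10 normalized counts, 34.8% differed between the groups at an adjusted p under 0.05, 16.4% being higher and 18.4% lower in *Tet iTKO* mESC.

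In both groups the primitive endoderm genes were near the limit of what this depth can show. Of the 10 genes, 7 had a mean under 3 normalized counts over the 6 lines, as did 45.6% of all listed genes, and 3 normalized counts was taken as the smallest value that can be read. *Amn* and *Gata4* were higher in all 3 *Tet iTKO* lines than in any *Ctrl* line, at 17.7 ± 3.21 against 1.67 ± 1.15 and 20 ± 7.55 against 6.33 ± 4.04 normalized counts (SD, n = 3). The values of the other 8 genes overlapped between the groups. Among genes with a mean above 0, 17.3% were higher in *Tet iTKO* mESC without overlap, so that 2 of 10 genes was close to the share among all genes. *Gata4* and *Sox7* passed the filter of a mean of at least 10. *Gata4* passed it through the *Tet iTKO* lines and *Sox7* through the *Ctrl* lines, and *Amn*, with a mean of 9.67, was just below it.

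**Figure D1:**
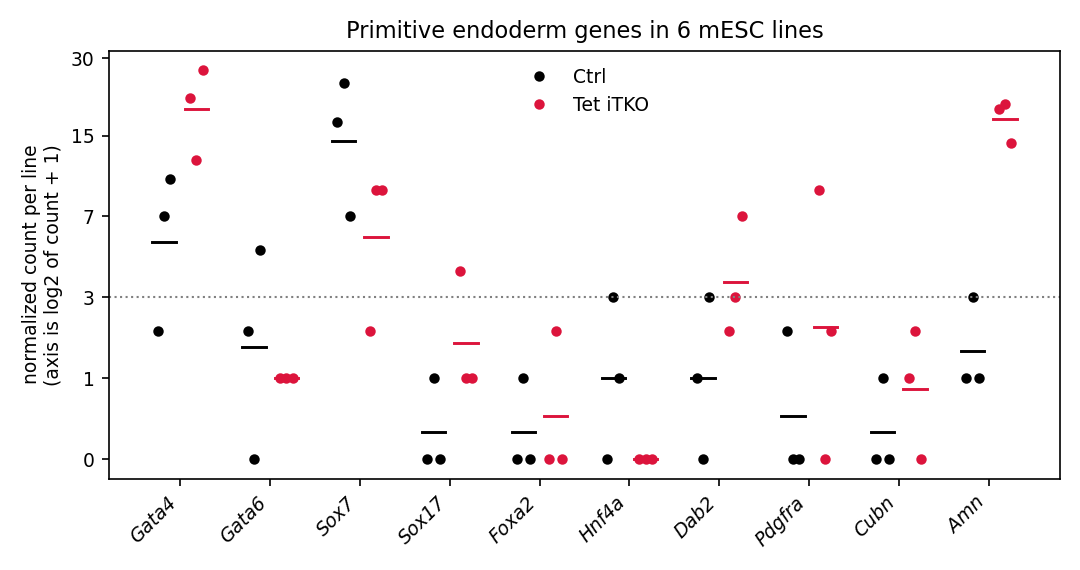
Normalized counts of the 10 primitive endoderm genes in each mESC line, on a log2(count + 1) axis, with *Ctrl* lines in black, *Tet iTKO* lines in red and a bar at the mean of the 3 log values. Only *Gata4* and *Amn* show the groups apart, and most points of the 7 genes from *Gata6* and *Sox17* to *Cubn* lie at or under the dotted line at 3 normalized counts.

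*Amn* encodes amnionless, the transmembrane protein that carries cubilin to the surface of visceral endoderm, kidney and gut cells. *Amn* was at 1, 3 and 1 normalized counts across the *Ctrl* lines and at 19, 20 and 14 in the *Tet iTKO* lines. All 3 *Tet iTKO* lines were high and similar, and no *Ctrl* line exceeded 3. Without the filter, a fit over 16064 genes put the difference at 2.87 on the log2 scale (standard error, SE, 0.54, limma adjusted p = 0.0042), and 9.85% of the genes in that fit were called higher. Among the 1987 genes with a mean of 5 to 20, the share called higher was 11.1%. *Amn* kept an adjusted p under 0.05 in the 6 fits that lacked 1 line each (0.0202 to 0.0421), and an exact two-sided permutation test gave p = 0.1, the smallest that 3 lines against 3 allow. An estimated 59 reads in *Tet iTKO* and 5 in *Ctrl* lines lay behind these values, a ratio of 10.2 after scaling for depth (95% exact interval 4.12 to 32.4, which covers counting error only). The gene occupies bases 111271095 to 111276426 of chromosome 12 (GRCm38, plus strand), where the annotation places no other gene.

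*Cubn* encodes cubilin, the large extracellular receptor that amnionless anchors. It had 0, 1 and 0 normalized counts across the *Ctrl* lines, against 1, 2 and 0 in *Tet iTKO*. No line passed 3, and the groups overlapped (exact permutation p = 0.7). The estimated reads, 1 in *Ctrl* and 4 in *Tet iTKO* lines, leave an interval for the ratio of 0.341 to 169.5, which includes 1 and also the ratio of *Amn*. Cubilin and amnionless work as 1 receptor, but of the 2 genes only *Amn* was above 3 normalized counts in any line. The third partner, megalin, is encoded by *Lrp2*, which had 28, 19 and 15 normalized counts across the *Ctrl* lines, against 58, 43 and 46 in *Tet iTKO*. *Lrp2* rose by 1.24 on the log2 scale (SE 0.34, limma adjusted p = 0.00395), and its groups did not overlap.

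The 250 bases before the RefSeq start of *Amn* and *Cubn* (GRCm38.p6) are shown because the encoded proteins form 1 receptor while only *Amn* was measured apart between the groups. TET enzymes act on methylated CpG sites, and the capitals mark each CpG. Methylation was not analysed here.
Amn: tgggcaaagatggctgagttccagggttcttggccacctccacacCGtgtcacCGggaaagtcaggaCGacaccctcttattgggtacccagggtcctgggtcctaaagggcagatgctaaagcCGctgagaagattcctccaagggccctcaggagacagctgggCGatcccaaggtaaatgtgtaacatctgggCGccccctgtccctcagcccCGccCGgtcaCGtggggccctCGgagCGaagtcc
Cubn: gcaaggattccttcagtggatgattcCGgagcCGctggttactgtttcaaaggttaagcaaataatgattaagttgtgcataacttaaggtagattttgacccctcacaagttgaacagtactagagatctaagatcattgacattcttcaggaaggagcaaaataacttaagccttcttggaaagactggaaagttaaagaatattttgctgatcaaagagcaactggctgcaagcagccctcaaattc
The *Amn* window lies at chr12:111270846-111271095 on the plus strand and holds 11 CpG sites with a GC content of 61.2%, and 35.8% of 32536 RefSeq windows of this length hold as many or more. The *Cubn* window lies at chr2:13491877-13492126 on the minus strand and holds 2 CpG sites with a GC content of 39.6%, and 81.4% of windows hold as many or more. The median window holds 6. GENCODE places the start of *Amn* at base 111271095 and that of *Cubn* at base 13491813. The *Cubn* window thus does not adjoin the annotated start of its gene. The bases just after the window were found in annotated transcripts for *Amn* but not for *Cubn*. Neither window contains GATAA, a sequence that GATA factors bind, or ACAAT, one that SOX factors bind, on either strand, against 22.5% and 27.4% of all windows, which says only that these letters are not in these windows. The RefSeq table used here gave windows for 6 of the 10 genes, namely *Amn*, *Cubn*, *Dab2*, *Foxa2*, *Hnf4a* and *Pdgfra*.

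*Gata4* and *Gata6* encode GATA zinc finger factors of the primitive endoderm programme. *Gata4* had 2, 7 and 10 normalized counts across the *Ctrl* lines, against 21, 12 and 27 in *Tet iTKO*. The lowest *Tet iTKO* line was just above the highest *Ctrl* line, and the spread within each group was wide. The log2 difference of *Gata4* was 1.64 (SE 0.60), with a limma adjusted p of 0.0302 among genes that passed the filter, which *Gata4* did through its *Tet iTKO* values, and of 0.0836 without the filter. It was 1 call among 2 primitive endoderm genes tested, where 34.8% of all genes were called, and nothing is read from that count. A rise of at least 1 on the log2 scale at an adjusted p under 0.05 was seen in 4.95% of all genes, and a fall of that size in 1.3%. The exact permutation test gave the smallest possible p of 0.1, and the reads behind the values, 18 in *Ctrl* and 63 in *Tet iTKO* lines, gave a ratio of 3.01 (95% exact interval 1.76 to 5.41). The call was lost without *Ctrl* line 1, *Tet iTKO* line 1 or *Tet iTKO* line 3 (limma adjusted p = 0.133, 0.104 and 0.154). It was also lost without the variance trend, with quantile normalization and with a correction for GC content and length (0.0808, 0.151 and 0.0841), while its direction held in all of these fits.

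*Gata6*, the first of the lineage factors to act, had 2, 0 and 5 normalized counts in *Ctrl* lines and 1 in each *Tet iTKO* line. Its groups overlapped (exact permutation p = 0.7), and only *Ctrl* line 3 was above 3. The interval for the ratio of reads ran from 0.0616 to 1.62. *Gata4* and *Gata6* thus lay in opposite order between the groups, but *Gata6* rested on an estimated 10 reads over all 6 lines, and the difference between the 2 genes was not tested.

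The SOX factors of the lineage, *Sox7* and *Sox17*, are HMG-box proteins that act after *Gata6*. *Sox7* had 17, 24 and 7 normalized counts across the *Ctrl* lines, against 2, 9 and 9 in *Tet iTKO*. *Ctrl* line 3 lay below 2 of the *Tet iTKO* lines, so the groups overlapped. On the log2 scale the difference was -1.19 (SE 0.64, limma adjusted p = 0.149), and the exact permutation test gave p = 0.3. Counting error alone was smaller than the difference, with 45 estimated reads in *Ctrl* and 24 in *Tet iTKO* lines and a ratio of 0.459 (95% exact interval 0.268 to 0.77), but against the spread between lines the difference did not pass the test. *Sox7* passed the test with quantile normalization (log2 fold change -1.80, limma adjusted p = 0.0391).

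*Sox17* had 0, 1 and 0 normalized counts across the *Ctrl* lines, against 4, 1 and 1 in *Tet iTKO* (exact permutation p = 0.3). Only *Tet iTKO* line 1 was above 3. In that line *Pdgfra* was also at its highest, as described below, whereas *Sox7* and *Dab2*, at 2 each, were lower than in the other *Tet iTKO* lines.

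*Foxa2*, a forkhead factor of visceral and definitive endoderm, and *Hnf4a*, a nuclear receptor of the visceral endoderm and liver, did not pass 3 normalized counts in any line. *Foxa2* had 0, 1 and 0 normalized counts across the *Ctrl* lines, against 0, 2 and 0 in *Tet iTKO*. *Hnf4a* had 0, 3 and 1 in *Ctrl* and was listed at 0 in all 3 *Tet iTKO* lines. No difference was detected for either gene (exact permutation p = 1.0 for *Foxa2* and 0.4 for *Hnf4a*). The ratio of reads on *Hnf4a* had an upper bound of 1.30.

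The 2 remaining genes encode proteins that handle signals and cargo at the cell membrane. *Dab2*, the clathrin adaptor that serves the megalin and cubilin receptors, had 1, 0 and 3 normalized counts across the *Ctrl* lines, against 2, 3 and 7 in *Tet iTKO* (exact permutation p = 0.3). *Pdgfra*, the receptor for PDGF-A and an early surface marker of the lineage, had 2, 0 and 0 in the *Ctrl* lines, against 9, 0 and 2 in *Tet iTKO* (exact permutation p = 0.7). The groups overlapped for both genes, and for *Pdgfra* only *Tet iTKO* line 1 was above 3. The intervals for the ratio of reads included 1 for both, from 0.864 to 11.8 for *Dab2* and from 0.917 to 40.4 for *Pdgfra*.

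Summed over the 10 genes, the *Ctrl* lines had 25, 40 and 27 normalized counts and the *Tet iTKO* lines 59, 50 and 61. *Amn* and *Gata4* accounted for this difference. They summed to 3, 10 and 11 in *Ctrl* and to 40, 32 and 41 in *Tet iTKO* lines, whereas the other 8 genes summed to 22, 30 and 16 and to 19, 18 and 20.

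Divided by exon length, the 10 genes could be ordered within each group. In *Ctrl* mESC the highest mean level was that of *Sox7*, with 4.85 ± 2.59 normalized counts per kb (SD, n = 3), followed by *Gata4* with 1.62 ± 1.04 and *Amn* with 0.904 ± 0.627, and the lowest was that of *Cubn* with 0.0223 ± 0.0387. Every gene overlapped its neighbour in this order. In *Tet iTKO* mESC the order of levels per kb began with *Amn* at 9.59 ± 1.74, *Gata4* at 5.12 ± 1.93 and *Sox7* at 2.02 ± 1.23 (SD, n = 3), and these 3 did not overlap. From *Sox7* down to *Gata6* each gene again overlapped the next, and *Gata6*, at 1 normalized count in each line, and *Cubn* were under the readable level. On the same per kb scale *Pou5f1* was at 2442 in *Ctrl* and 1997 in *Tet iTKO* mESC. Even *Amn* in *Tet iTKO* mESC ranked above only 61.1% of genes, and 28.2% of all listed genes were at 0 in every line.

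**Figure D2:**
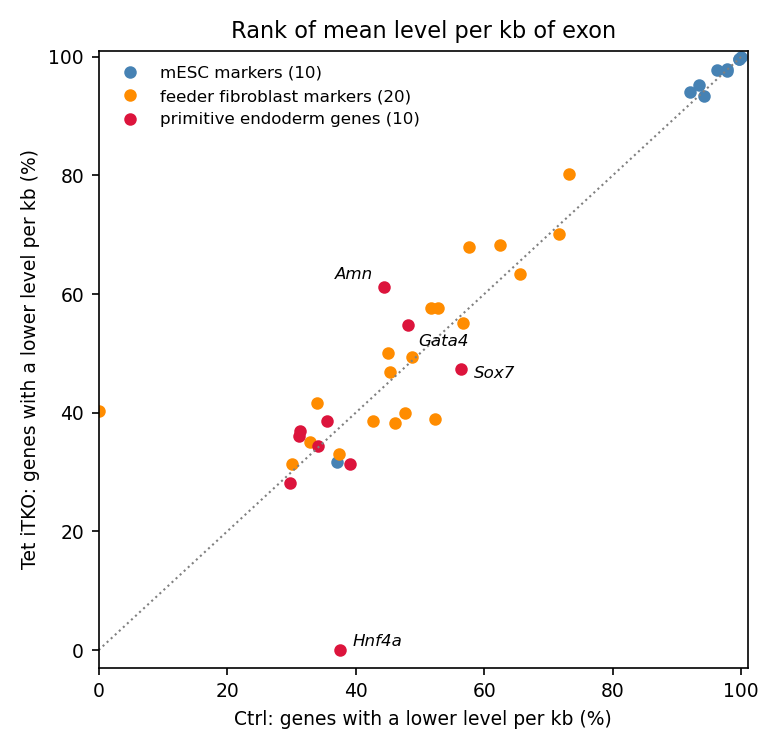
Percent of genes with a lower mean level per kb of exon in *Ctrl* (horizontal axis) and *Tet iTKO* mESC (vertical axis), for the 10 primitive endoderm genes (red), 10 mESC markers (blue) and 20 feeder fibroblast markers (orange). The highest primitive endoderm gene, *Amn* in *Tet iTKO* mESC, lies at 61.1%, *Amn* and *Gata4* lie above the dotted line of equal rank, *Sox7* lies below it, and *Hnf4a*, listed at 0 in the *Tet iTKO* lines, sits at the bottom.

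*Gata4* had the highest mean normalized count of the 10 genes, 13.2 over the 6 lines. Among 7789 genes with a symbol and a mean of at least 50, those whose log2 values ran most like it were *Grn* (Pearson r = 0.996), *Fbxl20* (0.995) and *Zbtb24* (0.995). The 6 values come from the same libraries and share their scaling, and 196 genes had an r above 0.9, so this is a description only.

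The primitive endoderm lays down a thick basement membrane, and 28 genes of that membrane and of the yolk sac were examined next. Of these, 14 had a mean of at least 10, of which 5 rose and 3 fell in *Tet iTKO* mESC. Among all genes tested 16.4% were higher and 18.4% lower. The median log2 fold change of the 14 was 0.50, against 0.01 over all genes tested. *Col4a2* and *Col4a1*, the type IV collagen chains of basement membranes, rose the most. *Col4a2* had 4, 10 and 8 normalized counts across the *Ctrl* lines, against 44, 41 and 43 in *Tet iTKO* (log2 fold change 2.46, SE 0.45, limma adjusted p = 3.81e-05). *Col4a1* had 25, 20 and 27 in the *Ctrl* lines, against 66, 105 and 88 in *Tet iTKO* (log2 fold change 1.79, SE 0.28, limma adjusted p = 3.63e-06). Both kept an adjusted p under 0.05 without any 1 line and with every setting in which they were tested. *Col4a2* passed the filter through its *Tet iTKO* values, and its limma adjusted p was 0.00281 without the filter. *Lrp2* followed, with the values given above. The laminin genes, chosen after their values were seen, rose less, with log2 fold changes of 1.15 for *Lamb1* (limma adjusted p = 6.62e-05) and 0.25 for *Lamc1* (0.0159), and *Lamc1* turned to -0.11 with the correction for GC content and length and lost its call without *Ctrl* line 3 or *Tet iTKO* line 1 (0.0602 and 0.0823), and without the trend (0.102). *Lama1*, with 20, 17 and 19 normalized counts against 29, 33 and 45, did not pass the test (0.059).

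The genes of this list that fell were its most abundant. *Sparc*, a secreted matrix glycoprotein, had 1912, 1886 and 1966 normalized counts across the *Ctrl* lines, against 1370, 1343 and 1382 in *Tet iTKO*, and fell by 0.49 on the log2 scale (limma adjusted p = 7.74e-09). *Apoe*, a lipid carrier, fell by 0.41 (limma adjusted p = 2.04e-09), and *Serpinh1*, a collagen chaperone, fell by 0.20 (0.00904). *Serpinh1* lost its call without *Ctrl* line 2 or *Tet iTKO* line 2 (0.0673 and 0.0814), with quantile normalization (0.271) and without the trend (0.163). The secreted products of visceral endoderm on this list, beside *Apoe*, were all under the filter and are named after their values were seen. *Afp*, *Ttr* and *Apoa4*, which encode alpha-fetoprotein, transthyretin and an apolipoprotein, were listed at 0 in all 6 lines. *Apoa1* did not pass 1 normalized count, and *Apob* had 0 in each *Ctrl* line and 1, 0 and 3 in *Tet iTKO*. *Rbp4*, the retinol carrier, had 1, 1 and 5 normalized counts across the *Ctrl* lines, against 10, 12 and 3 in *Tet iTKO*, with overlapping groups (limma adjusted p = 0.148 without the filter).

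Some genes of the fibroblast feeder layer moved with these matrix genes. Of 20 fibroblast markers, 9 were tested, 4 were higher and 0 lower in *Tet iTKO* mESC (limma), against 16.4% and 18.4% of all genes tested. At an unadjusted p under 0.05, 0 were lower, and the median log2 fold change was 0.89. With the correction for GC content and length the median was 0.41, with 5 higher and 0 lower by limma. The summed level of the 20 was 401 to 428 normalized counts in *Ctrl* and 700 to 739 in *Tet iTKO* lines. The largest rises were in *Mmp2* (log2 fold change 1.52, limma adjusted p = 0.000463), *Col3a1* (1.36, 0.000304) and *Col1a2* (1.17, 0.000333). Other fibroblast genes, chosen after their values were seen, did not move alike. Without the filter *Fbn1*, with 2, 1 and 2 normalized counts against 15, 10 and 6, and *Tbx5*, with 0 in each *Ctrl* line against 6, 2 and 2, were higher (limma adjusted p = 0.0252 and 0.0158). *Tagln*, with 13, 22 and 22 against 34, 38 and 34, and *Col6a1*, with 4, 6 and 3 against 15, 18 and 5, did not pass (0.0964 and 0.184). *Thy1*, the antigen used to sort feeders out, had 30, 46 and 41 normalized counts across the *Ctrl* lines, against 47, 35 and 23 in *Tet iTKO*. *Lum* had 2, 8 and 1 against 2, 2 and 1, *Dcn* 2, 3 and 15 against 1, 2 and 6, and *Twist2* did not pass 1 normalized count. The part of feeder RNA in the values of *Amn*, *Gata4* and the basement membrane genes was not tested.

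**Figure D3:**
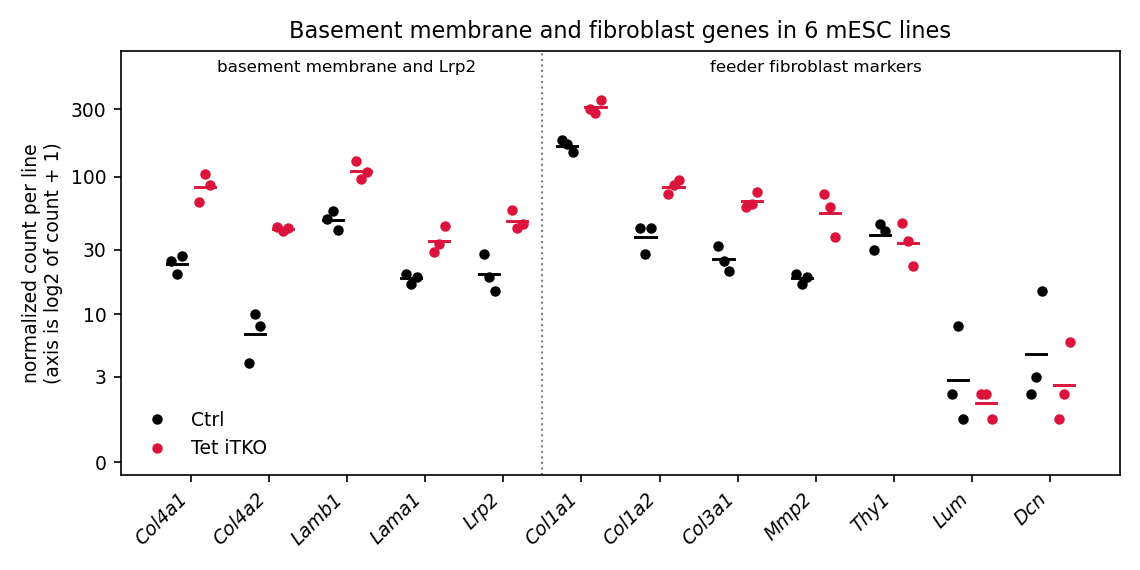
Normalized counts in each mESC line, on a log2(count + 1) axis, of basement membrane genes and *Lrp2* (left) and of feeder fibroblast markers (right), with *Ctrl* lines in black, *Tet iTKO* lines in red and a bar at the mean of the 3 log values. The groups stand apart for *Col4a1*, *Col4a2*, *Lamb1*, *Lama1* and *Lrp2* and also for *Col1a1*, *Col1a2*, *Col3a1* and *Mmp2*, but not for *Thy1*, *Lum* and *Dcn*.

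FGF signalling through ERK directs cells to the primitive endoderm in the embryo. RNA of genes of this pathway was measured in cells held in a MEK inhibitor, and the activity of the pathway was not. Of 22 genes of the pathway, 18 were tested, 4 were higher and 2 lower in *Tet iTKO* mESC, against 16.4% and 18.4% of all genes tested. The median over the 18 was 0.05 on the log2 scale. *Fgfr1*, a receptor for FGF4, rose from 291 ± 15.4 to 460 ± 34.7 normalized counts (SD, n = 3), or by 0.66 on the log2 scale (limma adjusted p = 1.48e-06). *Map2k1*, which encodes MEK1, rose by 0.43 on the log2 scale (limma adjusted p = 1.8e-06). *Grb2*, an adaptor that binds the activated receptor complex, fell by 0.28 (limma adjusted p = 0.00632), and *Dusp6*, an ERK phosphatase and target of the pathway, differed by -0.33 (0.047), with overlapping groups. *Dusp6* lost its call without *Ctrl* line 1 or 2 or *Tet iTKO* line 1 or 3 (0.073, 0.191, 0.223 and 0.128). It was also lost without the filter, with quantile normalization, without the trend and with the GC and length correction (0.108, 0.0745, 0.153 and 0.173), and that of *Grb2* without the trend (0.0647). Other genes of this list, chosen after their values were seen, did not move alike. *Etv5* rose by 0.23 (limma adjusted p = 0.00181), but not without the trend or with the GC and length correction (0.0881 and 0.0783). Without the filter *Egr1*, with 0, 0 and 1 normalized counts against 3, 3 and 4, was higher (0.0265). *Etv4*, *Spry2* and *Spry4* did not pass (0.622, 0.972 and 0.719), though *Etv4* passed as lower with the correction (0.014). Of the other FGF receptors, *Fgfr2* had 15, 15 and 11 normalized counts across the *Ctrl* lines, against 2, 8 and 9 in *Tet iTKO*. It did not pass (limma adjusted p = 0.153), though it passed as lower with quantile normalization (0.0335). *Fgfr4*, with 4, 5 and 7 against 11, 24 and 12, did not pass (0.0871), though it passed as higher without the trend (0.0387). *Fgfr3* was under the filter, with overlapping groups. *Fgf4*, the ligand, chosen after its values were seen, had 1398 ± 62.7 normalized counts in *Ctrl* and 1469 ± 57.5 in *Tet iTKO* mESC (SD, n = 3), which overlapped (limma adjusted p = 0.378), though it passed with quantile normalization (0.018).

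**Figure D4:**
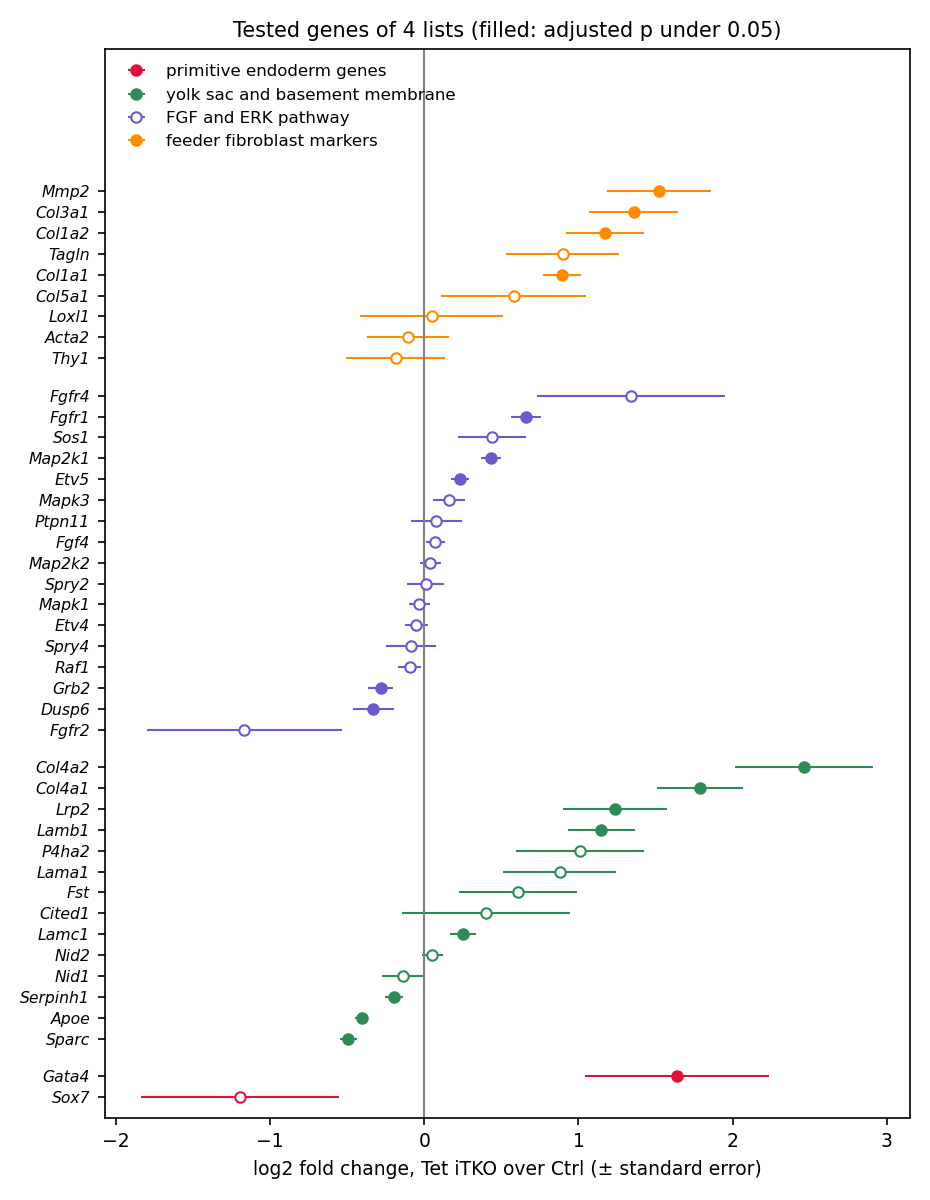
Log2 fold change of *Tet iTKO* over *Ctrl* mESC, with its standard error, for tested genes of the primitive endoderm (red), yolk sac and basement membrane (green), FGF and ERK (purple) and feeder fibroblast (orange) lists, without 1 gene of the FGF and ERK list. Filled points passed an adjusted p under 0.05, which of the 2 primitive endoderm genes over the filter was *Gata4*, and *Col4a2* and *Col4a1* lie furthest to the right.

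Relatives and binding partners of the 10 genes were few at a readable level. Of 19 such genes, 6 were tested, 2 were higher and 0 lower in *Tet iTKO* mESC by limma, against 16.4% and 18.4% of all genes tested. At an unadjusted p under 0.05, 2 were lower, and the median log2 fold change was 0.07. *Lrp2*, described above, was among those that rose. *Pdgfa*, chosen after its values were seen as the gene of a ligand of *Pdgfra*, had 308, 238 and 248 normalized counts across the *Ctrl* lines, against 228, 213 and 207 in *Tet iTKO*. It did not pass the test (log2 fold change -0.28, limma adjusted p = 0.0666), though it passed without *Ctrl* line 2 (0.0442). Other PDGF genes of the list, chosen alike, did not move with it. *Pdgfb*, under the filter, had 3, 3 and 2 normalized counts against 9, 13 and 15 (log2 fold change 1.85, limma adjusted p = 0.0279 without the filter). *Pdgfc*, with 19, 19 and 32 against 31, 21 and 33, did not pass (0.598), and *Pdgfd* did not pass 2 normalized counts in any line. The GATA relative *Gata5* was listed at 0 in all lines.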

How the data were processed

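RNA of 3 *Ctrl* and 3 *Tet iTKO* mESC lines was measured with Smart-Seq2, which keeps no strand. The authors used STAR for paired reads of 50 bases, kept those that aligned once, counted genes with HTSeq 0.7.1 in its stranded mode and divided counts by DESeq2 1.26.0 size factors in R 3.5.2. The submitters' processing notes name mm9. What was deposited are such normalized counts after rounding, handled here as a score, so count models were not run on them. Of 22380 identifiers per library, 20775 were paired with a symbol, exon length and GC content from GENCODE M21 (GRCm38), which also gave the coordinates. Reads behind the values were estimated from whole numbers that rounding skips or doubles, which recovered 20 of 20 simulated size factors within 1%. PCR copies were not removed by molecular identifiers, so intervals of read ratios (exact, 95%) and the floor of 3 normalized counts cover counting error only. Exons of *Gata6*, *Sox17*, *Dab2*, *Pdgfra* and *Cubn* share bases with annotated genes on the opposite strand, and reads there could not be told apart.

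The test was limma 3.58.1 (R 4.3.3, eBayes with a variance trend) on log2(normalized count + 1). It covered the 10524 genes whose mean reached 10, and p-values were adjusted over all of them by Benjamini-Hochberg. Fold changes on this scale understate those of low genes. On simulated data with 10517 genes, 103 of 111 genes changed by 1 on the log2 scale and 89 of 89 changed by 2 were recovered, with 7 unchanged genes called. The changed genes all had a higher mean than any of the 10 genes, and 1 fixed dispersion was used. The simulation therefore does not show how often changes in genes as low as these would be recovered. Single genes were also compared with exact two-sided permutation tests. The 10 genes and the lists were chosen with earlier results of these data known. From each list up to 3 of the largest rises and 3 of the largest falls at an adjusted p under 0.05 are named. For the gene with the highest mean, the 3 genes most like it are named. Of the genes this rule names, 2 are not reported here, though counts and medians of their lists include them. Alternatives were pseudocounts of 0.5 and 4, no filter, a mean of at least 50, rescaling by trimmed means, quantile normalization, no trend, the replicate number as a block, a loess correction (span 0.3) for GC content and length, a fold threshold, and fits without each line. The combinations with no filter were added for *Amn* after seeing the data. Python 3.11.15, SciPy 1.17.1, NumPy 2.4.6, pandas 2.3.3 and matplotlib 3.10.9 served for tables, exact tests and plots.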

Additional observations from a re-analysis of the deposited data

How the results depend on the processing

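The count of primitive endoderm genes called was 1. It was 0 without the variance trend, with the correction for GC content and length, and with that correction in a replicate block, and 0 to 1 when single lines were left out. It stayed at 1 with another gene in 2 settings, *Amn* without the filter and *Sox7* with quantile normalization. With a mean of at least 50 none of the 10 genes was tested. *Amn*, without the filter, kept its call in all 10 further fits, with log2 fold changes of 2.51 to 3.21. Over all genes, 1731 higher and 1934 lower became 1075 and 1217 without the trend, and 521 and 137 with a log2 fold change of 1 or more. Of the *Tet* genes 2 were called, against 0 without the filter or the trend, 1 with a mean of at least 50, 1 with the correction with or without the block, and 0 to 2 without single lines. A mean of at least 50 left 10 of the 16 related genes that rose and 2 of the 4 fibroblast markers, and without the trend 2 of 6 related genes fell. In single genes, 994 of 1105 fits kept direction and side of the threshold, and 11 reversed. With the correction, with or without the block, log2 fold changes turned to -0.11 for *Lamc1*, -0.19 for *Nid2* and *Map2k2*, 0.19 for *Tdgf1* and 0.11 for *Dppa5a*, and with quantile normalization *Tdgf1* turned to 0.13. The cause was not tested. Replicate numbers do not pair lines, which come from different embryos (correlations of same-numbered deviations 0.019, 0.003 and 0.002), and with the replicate block 1762 genes were higher and 1980 lower, *Gata4* among the first (limma adjusted p = 0.03). Depth limits the 7 genes with a mean under 3 normalized counts, whose ratios of reads all had intervals that included 1.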

Other observations

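Markers of other early lineages were read in the same lines. Of 10 genes of definitive endoderm and mesendoderm, 4 were tested, 3 were higher and 0 lower in *Tet iTKO* mESC by limma (0 lower at an unadjusted p under 0.05). Among all genes tested 16.4% were higher and 18.4% lower. The summed level of the 10 was 104 to 135 normalized counts in *Ctrl* and 204 to 251 in *Tet iTKO* lines. *T*, the primitive streak factor brachyury, had 0, 12 and 1 normalized counts across the *Ctrl* lines, against 24, 26 and 24 in *Tet iTKO* (log2 fold change 3.11, limma adjusted p = 0.000967). It passed the filter through its *Tet iTKO* values, and the limma adjusted p was 0.0244 without the filter. Its log2 fold change was 2.33 without *Ctrl* line 1 and 4.18 without *Ctrl* line 2, and it did not pass without the trend (0.0608). *Otx2*, a factor of the primed epiblast and of visceral endoderm, rose by 0.81 on the log2 scale (limma adjusted p = 0.0362) and *Hhex*, a homeobox gene of anterior endoderm, by 0.66 (0.0174). Among the fits that lacked 1 line, *Otx2* kept its call only without *Tet iTKO* line 1. It was at 0.0541, 0.0635 and 0.0578 without *Ctrl* line 1, 2 or 3 and at 0.122 and 0.188 without *Tet iTKO* line 2 or 3. *Otx2* also did not pass without the filter or with quantile normalization (0.0739 and 0.106). *Hhex* lost its call without *Ctrl* line 1 or *Tet iTKO* line 1 or 2 (0.0527, 0.0515 and 0.149). *Cer1*, another gene of anterior visceral endoderm, chosen after its values were seen, was listed at 0 in all 6 lines.

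Of 12 trophoblast genes, 7 were tested, 3 were higher and 1 lower, against 16.4% and 18.4% of all genes tested. *Krt8*, with 17, 9 and 19 normalized counts across the *Ctrl* lines, against 83, 105 and 90 in *Tet iTKO*, and *Krt18*, with 15, 20 and 12 against 91, 64 and 92, encode the keratin pair of simple epithelia, which trophoblast and extraembryonic endoderm share. They rose by 2.60 and 2.33 on the log2 scale (limma adjusted p = 3.24e-08 and 2.86e-07). *Cdh3* rose by 0.46 (limma adjusted p = 0.0279) and *Tfap2c* fell by 0.27 (0.00646). *Cdh3* lost its call without *Ctrl* line 1 or 3 or *Tet iTKO* line 1 or 2 (0.156, 0.0532, 0.146 and 0.0565), and also without the filter, without the trend and with the GC and length correction (0.0795, 0.111 and 0.162). *Tfap2c* lost its call with quantile normalization and without the trend (0.0675 and 0.0647). The 4 low trophoblast genes beside *Gata3* did not move alike, and are named after their values were seen. *Cdx2* and *Hand1* were listed at 0 in all *Ctrl* lines and had 1, 5 and 2 and 6, 5 and 6 normalized counts in *Tet iTKO* lines, whereas *Krt7* had 7, 13 and 2 against 5, 2 and 0 and *Elf5* was at 0 in all but *Tet iTKO* line 3, which had 1. Without the filter *Cdx2* and *Hand1* were higher (limma adjusted p = 0.0331 and 0.00203), and *Krt7* and *Elf5* did not pass (0.249 and 0.592). *Gata3* had 10, 10 and 1 normalized counts against 4, 5 and 4.

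Of the 10 mESC markers 9 were tested, with 3 higher and 4 lower, against 16.4% and 18.4% of all genes tested. *Epcam* rose by 0.45, *Klf4* by 0.32 and *Esrrb* by 0.29 on the log2 scale, and *Dppa5a* fell by 0.39, *Zfp42* by 0.35 and *Nanog* by 0.30 (limma adjusted p between 4.12e-10 and 0.00644). *Pou5f1*, with 5208, 5804 and 5457 normalized counts across the *Ctrl* lines, against 4373, 4318 and 4775 in *Tet iTKO*, fell by 0.29 (limma adjusted p = 5.69e-06). *Pou5f1* did not pass with quantile normalization or without the trend (0.202 and 0.0658). With the correction for GC content and length *Dppa5a* turned to 0.11, and *Esrrb*, *Klf4*, *Zfp42* and *Nanog* did not pass (limma adjusted p = 0.442, 0.0662, 0.434 and 0.226). *Zfp42* also lost its call without *Tet iTKO* line 2 (0.105), and without the trend *Esrrb*, *Klf4*, *Zfp42* and *Nanog* did not pass either (0.0573, 0.0775, 0.101 and 0.0572).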
